A study of Mus musculus with 18 samples.

Results

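The genes described here, 10 members of TGF-beta, activin and BMP signalling, were chosen by symbol: the ligands Tgfb1, Tgfb2, Tgfb3, Inhba, Bmp4 and Mstn, the antagonist Fst, the receptor Acvr2b and the inhibitory Smads Smad6 and Smad7. Of these 10 genes, 9 matched a row by Ensembl identifier among the 19153 genes measured, and all 9 passed the filter on low counts. Mstn matched no row and was not analysed here. The levels were measured by RNA sequencing in 18 libraries of immortalized mouse myoblasts, the precursor cells of skeletal muscle. The study asked how loss of LAP2α, a nuclear protein that binds A-type lamins away from the lamina, affects gene expression as these cells begin to differentiate.

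All 6 groups carried a p53 knockout, and each held 3 libraries. Wildtype (WT) cells had received a Cas9 plasmid without a guide, and knockout (KO) cells the same plasmid with a guide against LAP2α. Both were bulk populations, sorted in 2 rounds for the plasmid's fluorescent protein, and not single clones. Proliferating cells (Prol) were kept in 20% fetal calf serum, D0 cells had just reached confluence, and D2 cells had then spent 48 h in 5% serum. The labels number the replicates 1 to 3 without saying whether these were separate cultures, so p-values measure only the spread between these libraries.

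TGF-beta and activin ligands bind type II receptors, which recruit and activate type I receptors that in turn phosphorylate Smad2 and Smad3, while BMP ligands act through Smad1, Smad5 and Smad9. The phosphorylated Smads join Smad4 and enter the nucleus, where they switch on, among others, the genes of the inhibitory Smads. In skeletal muscle TGF-beta, activins and myostatin are known as brakes on myoblast differentiation and muscle growth, and follistatin as their extracellular trap.

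Library totals ran from 26437823 to 41619016 expected counts, so that 3 counts corresponded to 0.0651 to 0.119 CPM (counts per 1000000 of the scaled library total). Tmpo, which encodes LAP2α and the other LAP2 isoforms, was lower in the KO library than in the WT library of the same number in 9 of 9 pairs, but its log2 fold changes of -0.28 in Prol, -0.25 at D0 and -0.21 at D2 were not called, and its summed isoforms are a weak check of an edit in one of them. The summed level of 6 differentiating muscle markers was 2.29 to 28.4 CPM in Prol and D0, 2460 to 5050 CPM in WT D2 and 1470 to 1870 CPM in KO D2. That of 4 proliferation markers was 965 to 1710 CPM before and 157 to 290 CPM at D2. Of the myoblast markers, 5 of 6 were measured, with a sum of 39.4 to 68.6 CPM in Prol and D0. At D2 that sum was 521 to 880 CPM in WT and 377 to 416 CPM in KO. In Prol, Myod1 was at only 0.736 to 5.88 CPM, Cdh15 at 1.06 to 5.18 CPM and Des at 2.08 to 6.12 CPM. Chrna1 was at 6.95 to 16.1 CPM there and Myf5 at 20.5 to 27.4 CPM. Myf5 did not share the rise of the myoblast sum, at 11.6 to 21.4 CPM in WT D2 and 14.9 to 29.6 CPM in KO D2. The fibroblast list (5 of 6 found) rose from a sum of 13.9 to 78.8 CPM to one of 218 to 423 CPM at D2. Pdgfra made up most of the sum in Prol, at 16.6 to 46.4 CPM, and was at 66.9 to 241 CPM at D2. Dpt, Lum and Dcn were under 1 CPM in every Prol library, and Thy1 stayed under 2 CPM throughout Prol and D2. The smooth muscle list (3 of 4 found) summed to 233 to 529 CPM before and 559 to 1520 CPM at D2. Acta2 alone carried that rise, with means of 309 CPM in WT Prol and 991 CPM in WT D2, and 312 and 729 CPM in KO. Mean Cnn1 fell from 12.3 to 4.49 CPM in WT and from 14.5 to 4.22 CPM in KO. Smtn changed little (59.6 to 57.7 CPM in WT, 62.0 to 57.4 CPM in KO). The adipocyte sum (3 of 4 found) was 9.53 to 29.5 CPM before and 4.1 to 11.7 CPM at D2, while the endothelial (3 of 4) and leukocyte (2 of 5) sums did not exceed 2.57 and 8.0 CPM. The D2 libraries of replicate 1 stood apart: their scaling factors were 0.909 in WT and 0.931 in KO against 1.108 to 1.177 in the other D2 libraries. Results are therefore also given without the 6 libraries of replicate 1 where that ends a call.

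The 9 genes differed widely in abundance. Per kilobase of exon sequence and averaged over the 18 libraries, Tgfb3 (13.9 CPM per kb), Smad7 (12.9) and Inhba (12.2) had the highest levels. Tgfb2 (9.95), Bmp4 (9.91) and Smad6 (9.19) lay just below, followed by Tgfb1 (4.66) and Fst (3.76). Acvr2b was far lower at 0.283 CPM per kb, with 9 to 63 counts in a library, so that its values carry much more counting error than those of the other 8.

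**Figure D1:**
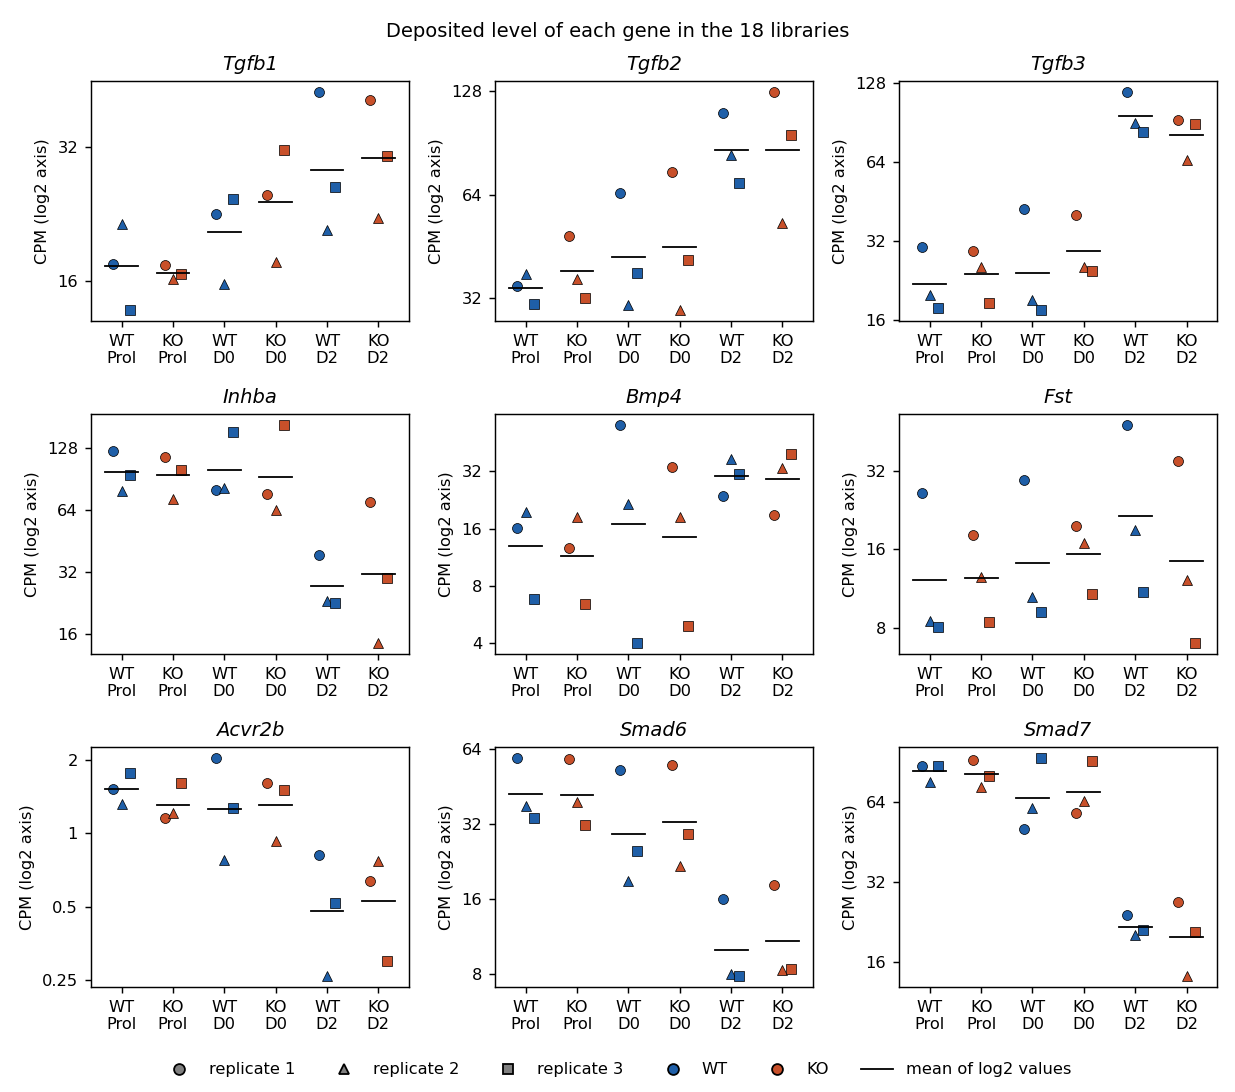
Level of each gene in CPM on a log2 axis in the 6 groups, with 1 point per library, the shape giving the replicate number, the colour the genotype and the line the mean of the log2 values. Tgfb3 lay above and Smad6, Smad7 and Inhba below their Prol levels in all 6 D2 libraries, whereas the groups of Fst overlapped throughout.

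At D2 the ligands Tgfb2 and Tgfb3 were higher than in Prol in both genotypes, and Inhba, Acvr2b, Smad6 and Smad7 were lower. In WT, 6 of the 9 genes passed limma with Benjamini-Hochberg adjustment over 17672 genes at an adjusted p under 0.05 (2 higher and 4 lower), against 30.7% of all genes tested (16.6% higher and 14.1% lower). In KO, 7 of the 9 passed (3 higher and 4 lower), against 32.3% of all genes (17.1% higher and 15.2% lower). With the replicate number as a block, which the numbers support in KO, 7 of the 9 passed there too, against 48.6% of all genes. The median log2 fold change of the 9 genes was 0.72 in WT and 0.21 in KO, beside -0.01 and 0.02 over all genes. The WT and KO comparisons used different libraries. The libraries of the groups did not overlap for 7 genes in WT (3 higher, 4 lower), against 43.5% of all genes (23.0% higher and 20.5% lower), and for 8 in KO (4 higher, 4 lower), against 47.7% (25.1% higher and 22.6% lower). All of these are bulk measurements, in which fewer cells of a type and less RNA per cell cannot be told apart. The changes came with those of the muscle, myoblast, proliferation and fibroblast marker sums given above, whose part in them was not tested.

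**Figure D2:**
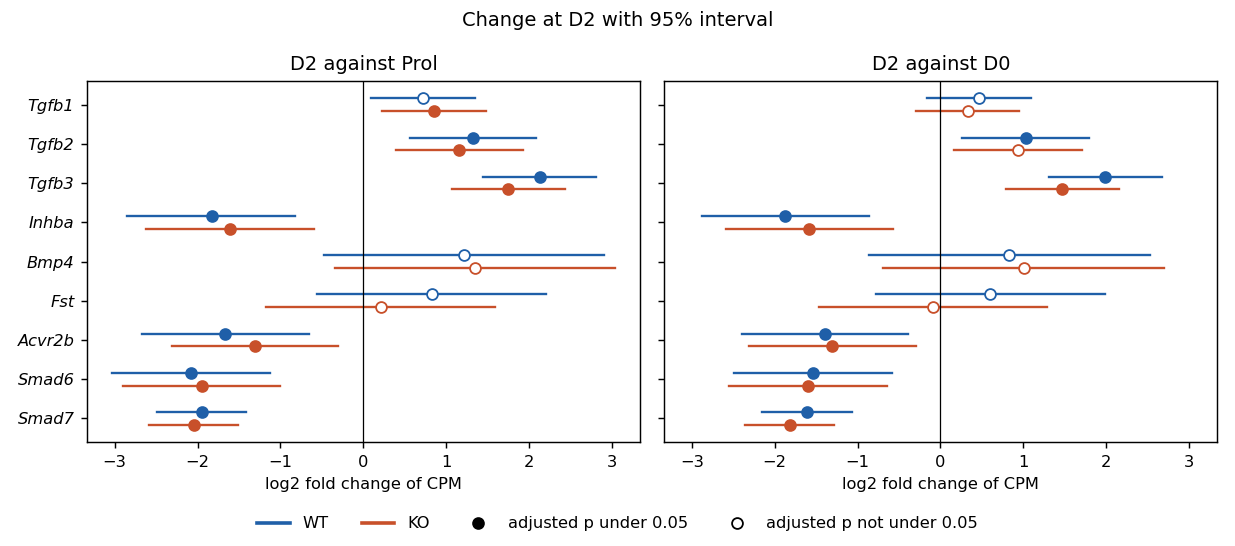
log2 fold change of each gene at D2 against Prol (left) and against D0 (right) in WT and KO, with 95% intervals from limma and filled points for an adjusted p under 0.05. Tgfb3, Inhba, Acvr2b, Smad6 and Smad7 are filled in both genotypes in both panels, and the intervals of Bmp4 and Fst include 0 in all 4 comparisons.

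Tgfb3, on chromosome 12 (chr12:86056745-86079041, GRCm38), encodes the TGF-beta 3 ligand and showed the largest rise of the 9 genes in both genotypes. In WT it stood at 30.3, 19.8 and 17.7 CPM in Prol, at 42.2, 19.1 and 17.4 CPM at D0 and at 118, 89.7 and 83.4 CPM at D2. In KO it stood at 29.3, 25.3 and 18.6 CPM in Prol, at 40.0, 25.3 and 24.5 CPM at D0 and at 92.3, 64.9 and 88.7 CPM at D2. Every D2 library was above every Prol and D0 library, and replicate 1 was the highest of its group in 6 of 6 groups. The log2 fold change of D2 over Prol was 2.13 ± 0.32 (SE) in WT, a 4.37-fold rise (limma adjusted p = 0.000117), and 1.75 ± 0.32 in KO, a 3.37-fold rise (limma adjusted p = 0.00061). Both calls stood whichever of the 6 libraries compared was left out, with limma adjusted p up to 0.00119 in WT and 0.00515 in KO.

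Tgfb2, which encodes the TGF-beta 2 ligand, lies on the minus strand of chromosome 1 (chr1:186622792-186705989). WT levels were 34.8, 37.7 and 30.9 CPM in Prol, 64.9, 30.7 and 37.9 CPM at D0 and 110, 83.6 and 69.3 CPM at D2. KO levels were 48.7, 36.4 and 32.2 CPM in Prol, 74.2, 29.6 and 41.5 CPM at D0 and 127, 53.1 and 95.2 CPM at D2. The D2 libraries lay above the Prol libraries of their genotype without overlap, by a log2 fold change of 1.32 ± 0.36 in WT (2.5-fold, limma adjusted p = 0.0109) and 1.16 ± 0.36 in KO (2.24-fold, limma adjusted p = 0.0215). As each library was left out in turn, the limma adjusted p reached 0.0447 in WT and 0.0931 in KO, where the call stood only without KO Prol replicate 1 or KO D2 replicate 2.

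Because Tgfb2 rose in both genotypes, the 250 bases before its start in RefSeq (GRCm38.p6, chr1:186705990-186706239, minus strand) are shown with the Smad-binding letters CAGAC in capitals, at -221 to -217 and -204 to -200 from the start.
Tgfb2 promoter: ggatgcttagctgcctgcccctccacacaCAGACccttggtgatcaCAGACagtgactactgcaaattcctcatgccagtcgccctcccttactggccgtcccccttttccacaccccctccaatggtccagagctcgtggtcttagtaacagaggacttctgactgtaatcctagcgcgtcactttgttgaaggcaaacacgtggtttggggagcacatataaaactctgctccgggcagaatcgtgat
Searched on both strands, CAGAC or its complement GTCTG occurs in 49.6% of the 32851 RefSeq promoter windows of 300 bases, so that its presence here is a description of the letters and not a binding site. The RefSeq promoter windows of 6 of the 9 genes were examined. None was available for Tgfb3 and Fst, and that of Smad7 was left out of the search. CAGAC or GTCTG was in the windows of Tgfb2 and of Acvr2b, where GTCTG lay at -233 to -229. The GC-rich BMP response letters GGCGCC (11.9% of promoters) and the E-box CAGCTG (16.3%) that muscle bHLH factors bind were in 0 of these 6 windows.

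Tgfb1, the gene of the TGF-beta 1 ligand (chr7:25687002-25705077), showed a smaller difference. It was at 17.5, 21.5 and 13.8 CPM in WT Prol and at 42.5, 20.9 and 26.0 CPM in WT D2, where the libraries overlapped. In KO it was at 17.4, 16.2 and 16.6 CPM in Prol and at 40.8, 22.2 and 30.5 CPM at D2, without overlap. At D0 it was at 22.7, 15.8 and 24.5 CPM in WT and at 25.0, 17.7 and 31.5 CPM in KO, and the D0 means lay between those of Prol and D2. The log2 fold change of D2 over Prol was 0.72 ± 0.29 in WT (limma adjusted p = 0.0767) and 0.85 ± 0.29 in KO (limma adjusted p = 0.0366). Within the replicate numbers the KO differences were 1.23, 0.45 and 0.87. The call in KO was lost without the 6 libraries of replicate 1 (0.66, limma adjusted p = 0.144), and with single libraries left out it stood only without KO D2 replicate 2 (limma adjusted p from 0.0215 to 0.14).

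Inhba encodes the beta A subunit that forms activin A and moved opposite to the TGF-beta genes. In WT it was at 124, 78.8 and 94.2 CPM in Prol, 79.5, 81.9 and 152 CPM at D0 and 38.7, 23.2 and 22.6 CPM at D2. In KO it was at 116, 72.4 and 100 CPM in Prol, 75.9, 63.8 and 165 CPM at D0 and 69.9, 14.4 and 29.9 CPM at D2. Each D2 library was below every Prol library of its genotype, but KO D2 replicate 1 at 69.9 CPM lay within the D0 range and only just under the lowest KO Prol library. The log2 fold change of D2 over Prol was -1.83 ± 0.48 in WT, 3.57-fold lower (limma adjusted p = 0.008), and -1.61 ± 0.48 in KO, 3.04-fold lower (limma adjusted p = 0.0167). With 1 library left out, the WT call always stood, while in KO the limma adjusted p reached 0.102 and the call was lost without KO Prol replicate 1, KO Prol replicate 3 or KO D2 replicate 2. Without the 6 libraries of replicate 1 the KO value was -2.04 (limma adjusted p = 0.00784).

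Bmp4, a BMP ligand of chromosome 14 (chr14:46383520-46390669), varied so much between replicates that no difference was called. It was at 16.1, 19.5 and 6.87 CPM in WT Prol, 55.8, 21.4 and 4.01 CPM in WT D0 and 23.7, 37.0 and 30.8 CPM in WT D2. The KO values were 12.7, 18.3 and 6.47 CPM in Prol, 33.7, 18.4 and 4.92 CPM at D0 and 18.8, 33.4 and 39.5 CPM at D2. The D2 libraries lay above the Prol libraries of their genotype without overlap, and the replicate 3 libraries were the lowest of all in Prol and D0. The log2 fold change of D2 over Prol was 1.22 ± 0.8 in WT (95% interval -0.48 to 2.91, limma adjusted p = 0.28) and 1.35 ± 0.8 in KO (-0.34 to 3.04, limma adjusted p = 0.222), so rises of several-fold remain within the intervals.

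Fst encodes follistatin, which binds activins and myostatin outside the cell and keeps them from their receptors. WT libraries were at 26.2, 8.48 and 8.08 CPM in Prol, 29.5, 10.5 and 9.17 CPM at D0 and 47.9, 18.9 and 11.0 CPM at D2. KO libraries were at 18.2, 12.5 and 8.44 CPM in Prol, 19.7, 16.9 and 10.8 CPM at D0 and 35.0, 12.2 and 6.98 CPM at D2. Replicate 1 was the highest and replicate 3 the lowest of its group in 6 of 6 groups, and the groups overlapped in every comparison. From Prol to D2 the log2 fold change was 0.83 ± 0.65 in WT (95% interval -0.56 to 2.21, limma adjusted p = 0.379) and 0.21 ± 0.65 in KO (-1.17 to 1.59, limma adjusted p = 0.845). Within the 3 replicate numbers the differences were 0.87, 1.16 and 0.45 in WT and 0.94, -0.04 and -0.27 in KO.

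Acvr2b encodes a type II receptor for activins and myostatin (chr9:119402118-119434995). It was at 1.51, 1.32 and 1.77 CPM in WT Prol and at 0.818, 0.26 and 0.52 CPM in WT D2. KO libraries lay at 1.15, 1.21 and 1.61 CPM in Prol and at 0.638, 0.77 and 0.301 CPM at D2. The D2 libraries were below the Prol libraries without overlap in both genotypes, while the D0 values ranged from 0.775 to 2.03 CPM in WT and from 0.928 to 1.61 CPM in KO. Between Prol and D2 the log2 fold change was -1.67 ± 0.47 in WT (limma adjusted p = 0.0135) and -1.31 ± 0.47 in KO (limma adjusted p = 0.0443). The KO call was lost under 3 other settings: the limma adjusted p was 0.0566 with library totals in place of the scaling factors, 0.0561 with only the groups compared in the fit and 0.0505 without the 6 libraries of replicate 1. Leaving out 1 library at a time, it stood in KO only without KO D2 replicate 2 (0.0386 to 0.201), and in WT it was lost without WT Prol replicate 3 or WT D2 replicate 2 (0.00556 to 0.076).

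Smad6 and Smad7 encode the inhibitory Smads, which compete for activated receptors and recruit ubiquitin ligases to them. Smad6 acts mainly on BMP receptors and Smad7 on both branches. Smad6 was at 59.1, 37.9 and 33.8 CPM in WT Prol, 52.8, 18.9 and 25.0 CPM in WT D0 and 16.0, 8.03 and 7.83 CPM in WT D2. The KO values were 58.6, 39.2 and 31.9 CPM in Prol, 55.2, 21.8 and 29.2 CPM at D0 and 18.2, 8.28 and 8.39 CPM at D2. The highest D2 library of each genotype was below its lowest Prol and D0 libraries, and replicate 1 was the highest of its group in 6 of 6 groups. The log2 fold change of D2 over Prol was -2.08 ± 0.45 in WT, 4.22-fold lower (limma adjusted p = 0.00224), and -1.95 ± 0.45 in KO, 3.87-fold lower (limma adjusted p = 0.00333).

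Smad7 was at 88.0, 76.3 and 87.9 CPM in WT Prol, 50.8, 61.0 and 94.2 CPM in WT D0 and 24.1, 20.2 and 21.1 CPM in WT D2. In KO it was at 92.9, 73.4 and 80.8 CPM in Prol, 58.3, 64.6 and 92.0 CPM at D0 and 26.9, 14.1 and 20.7 CPM at D2. All D2 libraries were below all others, and the standard errors were the smallest of the 9 genes. Relative to Prol, D2 had a log2 fold change of -1.95 ± 0.25 in WT, 3.86-fold lower (limma adjusted p = 2.92e-05), and -2.04 ± 0.25 in KO, 4.13-fold lower (limma adjusted p = 1.9e-05). The calls of Smad6 and Smad7 against Prol stood with any 1 of the libraries compared left out, with limma adjusted p up to 0.0201 for Smad6 and 0.000294 for Smad7.

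The Smad6 promoter is shown because Smad6 had one of the largest falls and its window holds the palindrome GTCTAGAC, the letters to which the DNA-binding domains of Smad3 and Smad4 are known to bind. The stretch runs from 250 bases before the RefSeq start to 4 bases after it (GRCm38.p6, chr9:64022056-64022309, minus strand), with the palindrome in capitals at -4 to 4.
Smad6 promoter: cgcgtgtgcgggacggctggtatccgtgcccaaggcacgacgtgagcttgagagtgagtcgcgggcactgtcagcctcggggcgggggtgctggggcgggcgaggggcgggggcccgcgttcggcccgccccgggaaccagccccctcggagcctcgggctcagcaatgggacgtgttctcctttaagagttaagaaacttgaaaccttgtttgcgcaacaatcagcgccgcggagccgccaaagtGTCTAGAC
GTCTAGAC occurs in 70 of 32851 RefSeq promoter windows (0.213%) and in 1 of the 6 windows examined here, which do not include that of Smad7. The match describes the sequence only, and no occupancy was measured.

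Measured against confluent D0 cells the pattern was similar in direction. The D2 libraries are the same as in the comparison with Prol, so the results are not independent of it. In WT, 6 of the 9 genes were called (2 higher, 4 lower), against 26.0% of all genes (14.7% higher and 11.3% lower), and in KO 5 (1 higher, 4 lower), against 28.3% (15.3% higher and 12.9% lower). The libraries did not overlap for 2 higher and 3 lower genes in WT, against 33.2% of all genes (18.7% higher and 14.5% lower), and for 1 higher and 3 lower in KO, against 36.7% (20.2% higher and 16.5% lower). The median log2 fold change of the 9 genes was 0.46 in WT and -0.09 in KO, beside 0.0 and 0.06 over all genes. Tgfb3 was 3.97-fold higher in WT (log2 1.99 ± 0.32, limma adjusted p = 0.000273) and 2.78-fold higher in KO (log2 1.47 ± 0.32, limma adjusted p = 0.00282). Smad7 was 3.05-fold lower in WT (log2 -1.61 ± 0.25, limma adjusted p = 0.000217) and 3.53-fold lower in KO (log2 -1.82 ± 0.25, limma adjusted p = 7.13e-05). These Tgfb3 and Smad7 calls stood with any 1 library left out.

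Smad6 was 2.92-fold lower at D2 than at D0 in WT (limma adjusted p = 0.018) and 3.03-fold lower in KO (limma adjusted p = 0.0138), Inhba 3.65-fold lower in WT (limma adjusted p = 0.0086) and 2.98-fold lower in KO (limma adjusted p = 0.0209), and Acvr2b 2.63-fold (limma adjusted p = 0.0402) and 2.48-fold lower (limma adjusted p = 0.0494). Their D2 and D0 libraries overlapped for Inhba in KO and for Acvr2b in WT. Each of these calls was lost with at least 1 library left out, the limma adjusted p reaching 0.0786 and 0.0678 for Smad6, 0.0534 and 0.124 for Inhba and 0.183 and 0.21 for Acvr2b in WT and KO. Smad6 lost its call in either genotype without replicate 1 of D0, replicate 2 of D2 or replicate 3 of D2. Inhba lost it in WT without WT D0 replicate 3, and in KO without KO D0 replicate 3 or replicate 2 or 3 of KO D2. Acvr2b kept it only without WT D0 replicate 2 or WT D2 replicate 1 in WT, and only without replicate 2 of D0 or of D2 in KO. Without the 6 libraries of replicate 1 the Acvr2b values were -1.43 in WT (limma adjusted p = 0.0693) and -1.29 in KO (limma adjusted p = 0.0959).

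Tgfb2 rose 2.04-fold from D0 to D2 in WT (log2 1.03 ± 0.36, limma adjusted p = 0.0475), a call that stood with 1 library left out only without WT D0 replicate 1 (limma adjusted p from 0.015 to 0.172). In KO the log2 fold change was 0.94 ± 0.36 (limma adjusted p = 0.0646) and KO D2 replicate 2 at 53.1 CPM lay below KO D0 replicate 1 at 74.2 CPM. The labels do not say that equal replicate numbers belong together. They were taken to pair the KO D2 and D0 libraries from correlations in these data, the lowest 0.1509 for replicate 3. With the replicate block the limma adjusted p of Tgfb2 in KO was 0.0037, and 6 of the 9 genes were called, against 46.0% of all genes. The KO Tgfb2 differences within the 3 numbers were 0.78, 0.84 and 1.2. Tgfb1, Bmp4 and Fst were not called in either genotype, with log2 fold changes from -0.09 for Fst in KO to 1.01 for Bmp4 in KO.

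Confluence without low serum had little measurable effect on these genes. Between D0 and Prol 0 of the 9 genes were called in either genotype, against 0.00566% of all genes (1 gene) in WT and 0% in KO, and limma found an unadjusted p under 0.05 for 0 of them in both, against 2.17% and 1.12% of all genes. With the replicate block, which the numbers support here, 0 were called. An unadjusted p under 0.05 was then found for Smad6 in WT, against 6.70% of all genes, and for Smad6 and Tgfb1 in KO, against 3.29%. With voom weights 0 genes of the whole table were called in either genotype. The log2 fold changes ran from -0.53 (Smad6) to 0.38 (Bmp4) in WT and from -0.35 (Smad6) to 0.52 (Tgfb1) in KO, with 95% intervals between -1.48 and 2.08. Tgfb1 in KO was the only gene of the 9 with libraries that did not overlap (17.7 to 31.5 CPM at D0 against 16.2 to 17.4 CPM in Prol), where 4.35% of all genes did not overlap (2.41% higher), against 0 of the 9 and 5.92% of all genes in WT. Within the replicate numbers Smad6 was lower at D0 than in Prol in all 3 WT pairs (by log2 differences of -0.16, -1.0 and -0.43) and in all 3 KO pairs (-0.09, -0.85 and -0.13).

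The loss of LAP2α was not accompanied by a detectable change of any of the 9 genes. Between KO and WT, limma called 0 of 9 in Prol (against 0.00566% of all genes), 0 of 9 at D0 (against 0%) and 0 of 9 at D2 (against 0%), and an unadjusted p under 0.05 was found for 0 of 9 in each state, against 1.11%, 1.47% and 1.96% of all genes. The count called was also 0 of 9 in each state with voom weights, with the replicate block and under every other alternative run. Under criteria modelled on the study's (unadjusted p under 0.05, over 1.5-fold, a library at 10 CPM) 0 of 9 passed in each state. The paper's methods word the fold cut as a log2 fold change above 1.5 in either direction, which is stricter. With the 1.5-fold cut used here, 20 of all genes passed in Prol, 37 at D0 and 82 at D2. The paper reported genes changed in KO, more of them at D2 than in Prol. Its fit had voom weights, a lane block and its own gene filter, so its gene counts are not comparable with those here. The groups overlapped for all 9 genes in each state, where 4.41%, 3.02% and 6.17% of all genes did not. The median log2 difference of the 9 genes was -0.03 in Prol, 0.09 at D0 and 0.0 at D2, beside 0.0, 0.01 and -0.01 over all genes. At D2 the muscle marker sum differed between the genotypes without overlap (2460 to 5050 CPM in WT, 1470 to 1870 CPM in KO). The myoblast marker sum did too (521 to 880 CPM in WT, 377 to 416 CPM in KO), although Myf5 within it overlapped (11.6 to 21.4 and 14.9 to 29.6 CPM).

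The intervals show how large a difference could have gone undetected. At D2, that of Smad7 was the narrowest, with a log2 difference of -0.13 (95% interval -0.67 to 0.41), followed by Tgfb1 at 0.08 (-0.54 to 0.71), Tgfb3 at -0.24 (-0.93 to 0.44) and Tgfb2 at 0.0 (-0.76 to 0.77). Wider were those of Smad6 at 0.11 (-0.84 to 1.06), Acvr2b at 0.14 (-0.86 to 1.14) and Inhba at 0.19 (-0.82 to 1.2), and the widest those of Fst at -0.58 (-1.97 to 0.8) and Bmp4 at -0.04 (-1.74 to 1.65). A 2-fold difference in either direction thus lay outside the intervals of Tgfb1, Tgfb2, Tgfb3 and Smad7 and inside at least one end of those of the other 5 genes. In Prol and at D0 the log2 differences ran from -0.22 to 0.16 and from -0.22 to 0.27.

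Fst had the largest difference between the genotypes at D2. In all 3 pairs of the same replicate number the level was lower in KO, with log2 differences of -0.45, -0.64 and -0.66, while the pairs in Prol gave -0.52, 0.56 and 0.06 and those at D0 -0.58, 0.68 and 0.24. With the replicate block Fst alone had an unadjusted p under 0.05, where 5.23% of all genes did, and its limma adjusted p was 0.935.

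**Figure D3:**
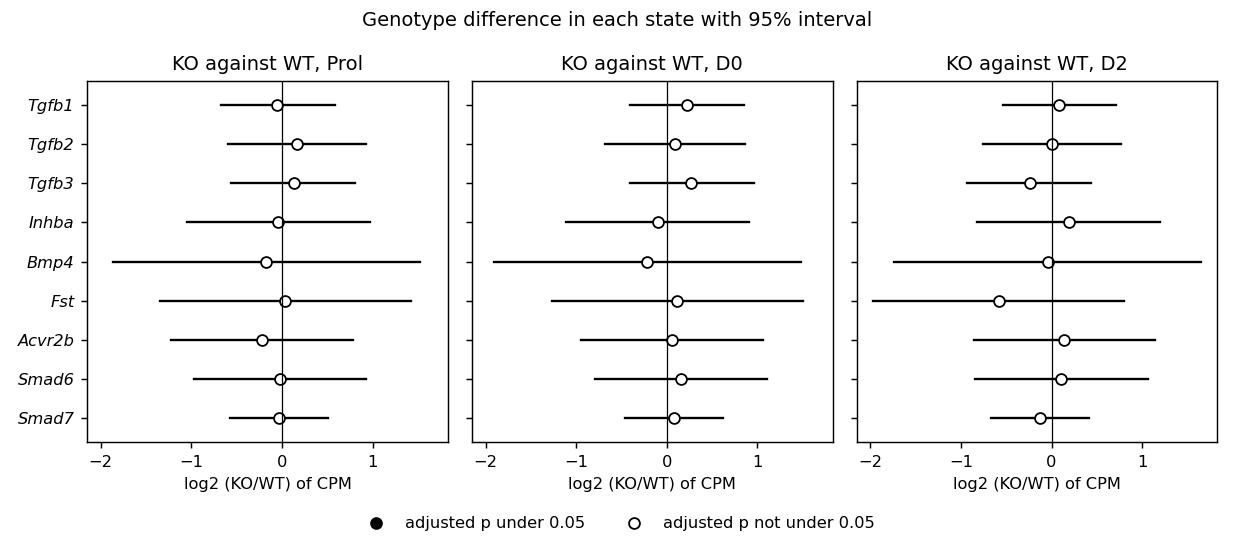
log2 ratio of KO over WT for each gene in Prol, at D0 and at D2, with 95% intervals from limma. Every interval includes 0, no point is filled, and the values range from -0.58 (Fst at D2) to 0.27 (Tgfb3 at D0).

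The change from Prol to D2 was also compared between the genotypes directly, as the difference of the KO and WT log2 fold changes. Of the 9 differences 0 were called by limma (against 0% of all genes), 0 had an unadjusted p under 0.05 (against 0.945%), and voom weights and the replicate block also gave 0 calls. They ran from -0.62 ± 0.92 for Fst (95% interval -2.57 to 1.34) to 0.36 ± 0.67 for Acvr2b (-1.06 to 1.78). Tgfb3 was at -0.37 ± 0.46 (-1.34 to 0.6), Smad6 at 0.13 ± 0.63 (-1.22 to 1.47) and Smad7 at -0.1 ± 0.36 (-0.86 to 0.67). Tgfb1, whose D2 difference passed in KO and not in WT, had a difference of 0.13 ± 0.42 (-0.75 to 1.02), so it is not shown to differ between them.

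When the group means were ranked, the D2 groups of both genotypes formed the top of the order for Tgfb1, Tgfb2, Tgfb3, Bmp4 and Fst and the bottom for Inhba, Acvr2b, Smad6 and Smad7. The only neighbours whose libraries did not overlap were KO D2 and KO D0 for Tgfb3 (means 81.9 and 29.9 CPM), KO Prol and KO D2 for Inhba (96.4 and 38.0 CPM) and for Acvr2b (1.33 and 0.57 CPM), WT D0 and KO D2 for Smad6 (32.2 and 11.6 CPM), and WT D0 and WT D2 for Smad7 (68.7 and 21.8 CPM). For Tgfb1, Tgfb2, Bmp4 and Fst all neighbours overlapped.

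For each gene the tested gene whose log2 values followed it most closely over the 18 libraries is given as a description, since these libraries share states and replicate numbers. These were Dclk1, a kinase of microtubules, for Tgfb3 (Pearson r = 0.98), Grk6, a kinase of G protein-coupled receptors, for Smad7 (r = 0.988) and Cpne2 for Smad6 (r = 0.981). Bace1, the beta-secretase, followed Tgfb2 (r = 0.969), Plaur, the urokinase receptor, Inhba (r = 0.969), and Zkscan17 Acvr2b (r = 0.943). The lowest values were those of Ppp1r13b with Tgfb1 (r = 0.927), the glutamate transporter gene Slc1a3 with Bmp4 (r = 0.908) and the cation channel gene Trpv4 with Fst (r = 0.878).

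The 9 genes were set beside a list of 81 genes of the same pathways, of which 77 were measured and 76 tested. From Prol to D2, 31 of the 76 were called in WT (20 higher, 11 lower) and 33 in KO (22 higher, 11 lower), against the 30.7% and 32.3% of all genes given above. Without the 9 genes the counts were 25 of 67 in WT (37.3%; 18 higher, 7 lower) and 26 of 67 in KO (38.8%; 19 higher, 7 lower). In KO, where the numbers were taken to pair the libraries, the replicate block called 41 of the 76, against 48.6% of all genes. The list's median log2 fold change was 0.33 in WT and 0.25 in KO, the same when genes at or under 3 counts in a group were set at their bound. The counts by role below, of 5 to 12 genes each, stand against the same 30.7% and 32.3%. Receptors, at 33.3% in each genotype, lay near these shares, and signalling Smads (16.7%), intracellular inhibitors (25.0%) and BMP ligands (0%) below them. The other roles ran from 33.3% (secreted antagonists in KO) to 83.3% (co-receptors and decoys in KO).

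Among the genes of TGF-beta ligands and of their release from the latent complex, 5 of 11 rose in WT and 7 of 11 in KO, and 0 passed as lower. Besides Tgfb2 and Tgfb3 these were the integrin subunit genes Itgb6 and Itgb8, whose integrins free TGF-beta from its latent complex, and Lrrc32, which tethers that complex to the cell surface, joined in KO by Tgfb1 and by Ltbp3, a latent TGF-beta binding protein. Itgb6 went from 2.32, 0.534 and 0.76 CPM in WT Prol to 16.8, 10.4 and 10.5 CPM in WT D2 (log2 3.65 ± 0.45, limma adjusted p = 1.86e-05), and in KO rose by log2 3.24 ± 0.45 (limma adjusted p = 5.72e-05). Itgb8 rose by log2 1.39 ± 0.37 in WT (limma adjusted p = 0.00885) and 1.59 ± 0.37 in KO (limma adjusted p = 0.00339). Lrrc32 rose by log2 1.39 ± 0.51 in WT (limma adjusted p = 0.0489) and 1.56 ± 0.51 in KO (limma adjusted p = 0.0276), but its WT call was lost without the 6 libraries of replicate 1 (0.97, limma adjusted p = 0.0772), as was the KO call of Ltbp3 (0.71 ± 0.23, limma adjusted p = 0.0276, and 0.47 with 0.0722 without them). Ltbp1, which stores latent TGF-beta in the matrix, was lower at D2 in all 3 replicate numbers of both genotypes. It went from 735, 350 and 587 CPM in Prol to 351, 136 and 150 CPM at D2 in WT (log2 -1.47 ± 0.56, limma adjusted p = 0.0598, and 0.0395 without the 6 libraries of replicate 1). In KO it went from 770, 385 and 541 CPM to 466, 133 and 228 CPM (log2 -1.17 ± 0.56, limma adjusted p = 0.13, and 0.000608 with the replicate block). Ltbp4, at -0.17 ± 0.34 in WT and -0.19 ± 0.34 in KO, passed as lower only without the 6 libraries of replicate 1 (-0.51 with a limma adjusted p of 0.0302 in WT and -0.45 with 0.0453 in KO), as did Ltbp2 in KO (-1.07 with 0.0162, against -0.83 ± 0.84 with them).

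Of the 6 activin, inhibin and GDF genes, 3 rose and 1, Inhba, fell in each genotype. Inha, the inhibin alpha subunit that opposes activin, rose from 1.33, 1.48 and 1.3 CPM to 2.28, 3.98 and 3.89 CPM in WT (limma adjusted p = 0.0289) and by log2 1.58 ± 0.41 in KO (limma adjusted p = 0.0077). Gdf11, the close relative of myostatin, rose by log2 0.95 ± 0.2 in WT (limma adjusted p = 0.00202) and 1.0 ± 0.2 in KO (limma adjusted p = 0.00126). Gdf6 also passed, yet it was at only 0.17 to 0.314 CPM at D2 and at or under 3 counts in every Prol library. Of the 5 BMP ligand genes tested, 0 were called in either genotype, and without the 6 libraries of replicate 1 Bmp2 was called in KO (1.81, limma adjusted p = 0.0188, against 1.77 and 0.164 with them). Bmp6 was at 0.281, 0.257 and 0.456 CPM in WT Prol and 0.729, 0.342 and 0.689 CPM in WT D2 (log2 0.79 ± 0.63, limma adjusted p = 0.381).

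Secreted antagonists were called in 5 of 12 cases in WT (4 higher, 1 lower) and 4 of 12 in KO (all higher). Chrd, the gene of the BMP trap chordin, went from 0.578, 0.259 and 0.152 CPM in WT Prol to 7.69, 6.03 and 5.47 CPM in WT D2 and from 0.195, 0.141 and 0.0483 CPM to 4.09, 5.41 and 3.81 CPM in KO. Chrdl1, a chordin relative, rose by log2 2.75 ± 0.86 in WT (limma adjusted p = 0.0236) and 4.23 ± 0.86 in KO (limma adjusted p = 0.00142). Dcn, the gene of the proteoglycan decorin, which binds TGF-beta, went from 0.0844 to 0.415 CPM in Prol to 63.8, 49.5 and 30.1 CPM in WT D2 and 60.7, 47.6 and 40.4 CPM in KO D2, and it is also one of the fibroblast markers that rose at D2.

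Of the 9 receptor genes tested, 2 rose and 1, Acvr2b, fell in each genotype. Tgfbr2, the type II receptor of TGF-beta, went from 59.9, 60.5 and 59.0 CPM in WT Prol to 326, 235 and 242 CPM in WT D2 (log2 2.15 ± 0.27, limma adjusted p = 2.3e-05) and from 63.3, 60.5 and 67.0 CPM to 332, 197 and 347 CPM in KO (log2 2.16 ± 0.27, limma adjusted p = 2.26e-05). Acvr2a, the other activin type II receptor, rose by log2 0.88 ± 0.17 in WT (limma adjusted p = 0.00112) and 0.9 ± 0.17 in KO (limma adjusted p = 0.00088), opposite to Acvr2b. Its D2 libraries were at 36.7 to 49.7 CPM in WT and 33.9 to 46.3 CPM in KO, above every Prol library.

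Co-receptors and decoys were called in 4 of 6 cases in WT and 5 of 6 in KO, and only the decoy receptor Bambi fell, by log2 -0.81 ± 0.26 in WT (limma adjusted p = 0.0266) and -1.03 ± 0.26 in KO (limma adjusted p = 0.00662). Rgma, a repulsive guidance molecule that acts as a BMP co-receptor, rose by log2 2.22 ± 0.4 and 2.17 ± 0.4 (limma adjusted p = 0.00054 and 0.000626), and Rgmb of the same family by 0.98 ± 0.19 and 0.92 ± 0.19 (limma adjusted p = 0.0012 and 0.00185), in WT and KO. Hfe2, hemojuvelin, the muscle and liver member of that family, was at 0.0169 to 0.11 CPM in Prol and at 57.4, 37.7 and 41.0 CPM in WT D2 and 20.4, 31.9 and 24.6 CPM in KO D2. Every Prol library held 3 counts or fewer, so no fold is given. Tgfbr3, betaglycan, rose by log2 2.03 ± 0.73 in KO (limma adjusted p = 0.0448) and had a log2 fold change of 1.93 ± 0.73 in WT (limma adjusted p = 0.0571).

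Of the 6 signalling Smads, Smad9 alone was called, from 39.1, 17.4 and 23.9 CPM in WT Prol to 3.91, 2.08 and 2.81 CPM in WT D2 (log2 -3.16 ± 0.4, limma adjusted p = 2.28e-05) and by log2 -2.54 ± 0.4 in KO (limma adjusted p = 0.00017). Among 8 intracellular inhibitors only Smad6 and Smad7 were called. The ubiquitin ligase genes Smurf1 and Smurf2, partners of the inhibitory Smads, had log2 fold changes of -0.46 ± 0.42 and -0.42 ± 0.33 in WT and -0.53 ± 0.42 and -0.26 ± 0.33 in KO, with limma adjusted p of 0.375 or more in all 4 cases. Pmepa1 (0.66 ± 0.51 in WT, limma adjusted p = 0.362) and Skil (-0.57 ± 0.4 in KO, limma adjusted p = 0.306) were not called either.

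Genes known as targets of the pathways did not move one way. Of 5 TGF-beta and activin targets, Tgfbi, an extracellular matrix protein, and Cdkn2b, a cyclin-dependent kinase inhibitor, rose in both genotypes. Tgfbi went from 32.8, 26.8 and 27.5 CPM to 185, 67.6 and 103 CPM in WT (limma adjusted p = 0.0056) and from 52.9, 39.5 and 24.0 CPM to 286, 178 and 114 CPM in KO (limma adjusted p = 0.00149). Cdkn2b rose by log2 1.2 ± 0.3 in WT (limma adjusted p = 0.00588, and 0.0713 without the 6 libraries of replicate 1) and 1.5 ± 0.3 in KO (limma adjusted p = 0.00115). Of 8 BMP targets, 4 fell and 1 rose in WT and 5 fell in KO.

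Id1, an inhibitor of the muscle bHLH factors, fell from 204, 182 and 169 CPM to 74.4, 47.9 and 38.8 CPM in WT (limma adjusted p = 7.77e-05) and from 182, 169 and 154 CPM to 48.3, 25.1 and 34.0 CPM in KO (limma adjusted p = 1e-05). Atoh8 fell by log2 -2.41 ± 0.35 in WT (limma adjusted p = 8.58e-05) and -2.6 ± 0.35 in KO (limma adjusted p = 4.43e-05), and Id2 in WT by -1.58 ± 0.37 (limma adjusted p = 0.00408). In KO, Id2 was lower at D2 as well, at 103, 95.5 and 85.1 CPM in Prol and 30.8, 31.4 and 21.8 CPM at D2. Hey1 rose in WT (log2 1.49 ± 0.41, limma adjusted p = 0.012) and was at 0.67 ± 0.41 in KO (limma adjusted p = 0.243), whereas Msx1 fell in KO (-1.9 ± 0.42, limma adjusted p = 0.00253) and was at -0.7 ± 0.42 in WT (limma adjusted p = 0.239). The direct comparison of this change between the genotypes called 0 of all genes tested, so neither Hey1 nor Msx1 is shown to differ in it.

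**Figure D4:**
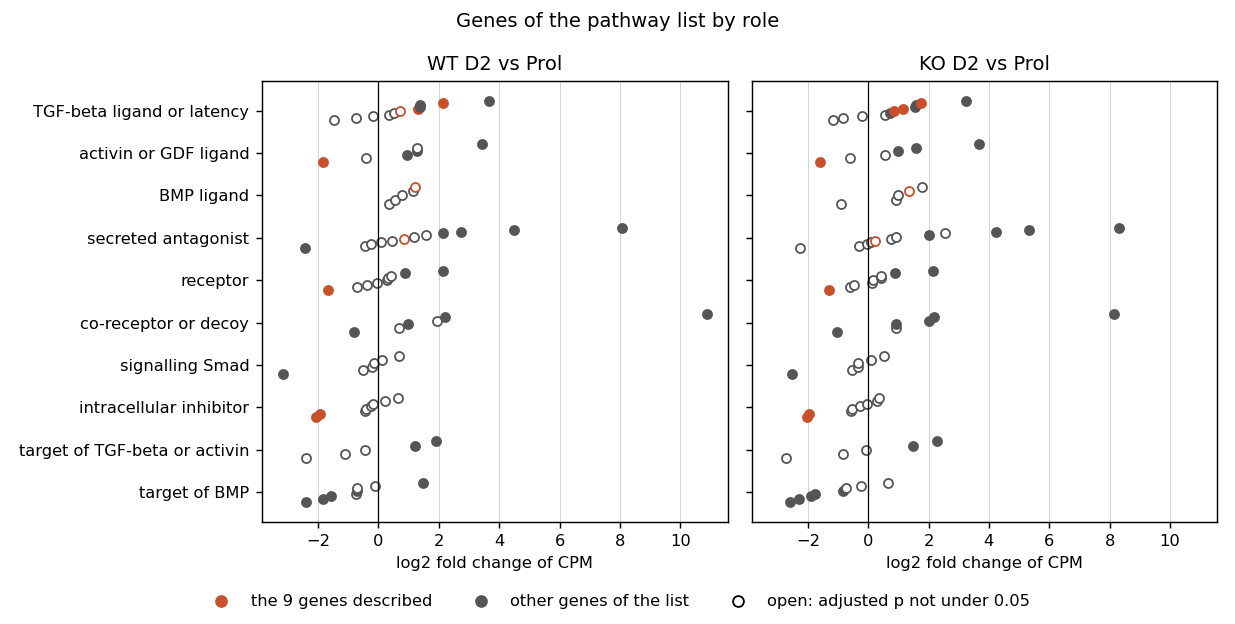
log2 fold change of D2 over Prol for the 76 genes of the pathway list, grouped by role, in WT (left) and KO (right), with the 9 genes described above in orange and filled points for an adjusted p under 0.05. The intracellular inhibitors called are Smad6 and Smad7 alone, no BMP ligand is called, and the points beyond 8 are Dcn and Hfe2, which were near the detection limit in Prol, so that their fitted values depend on the 0.5 added counts.

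Between KO and WT at D2, limma called 0 of the 76 genes (0% of all genes), and 1, Id1, had an unadjusted p under 0.05, where 1.96% of all genes did. Id1 was at 74.4, 47.9 and 38.8 CPM in WT and 48.3, 25.1 and 34.0 CPM in KO, a log2 difference of -0.58 ± 0.27 (limma adjusted p = 1). The log2 differences of other genes named above were -0.82 ± 0.82 for Hfe2, -0.85 ± 0.42 for Msx1, 0.78 ± 0.4 for Smad9, 0.78 ± 0.51 for Lrrc32 and 0.72 ± 0.47 for Tgfbi, all with a limma adjusted p of 1. The replicate block and voom weights gave 0 calls as well.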

How the data were processed

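RNA sequencing was measured in 18 libraries in 6 groups of 3. Per the paper's methods, the authors used cutadapt for trimming and NextGenMap for strand-specific mapping against GRCm38 transcripts. The authors combined RSEM's expected counts per gene, dropped genes with few counts and applied edgeR's TMM factors ahead of limma-voom. The deposited CPM values are expected counts plus 0.5 per 1000000 of the TMM-scaled library total. Low levels are therefore bounded by the added counts, and a sequencing lane used by the authors as a block could not be used, as the labels do not give it. The submitters' gene sums leave reads shared between near-identical copies to RSEM's estimate.

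From these values log2 CPM were fitted in limma 3.58.1 (R 4.3.3) with 1 factor of 6 groups, a variance trend and no block, on the 17672 of 19153 genes that exceeded 5 expected counts throughout at least 1 group of 3 libraries. Counts were recovered from the deposited values. A gene was called at a Benjamini-Hochberg adjusted p under 0.05 over all genes tested, and errors are SE and 95% intervals of that fit. Counting error alone underlies the limit of 3 counts. Of 81 pathway genes the text names, by role, up to 3 that rose and 3 that fell most among those called, or the 2 with the smallest p where none was called, and for each of the 9 genes the one with the highest Pearson r. Ltbp1, Ltbp2, Ltbp3, Ltbp4 and the call of Bmp2 without replicate 1 were picked out after their values were seen, and some genes the rule names are not reported here. The genes and lists were chosen with earlier results of these data known. Gene positions are those of the GRCm38 annotation, and promoters those of RefSeq.

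The replicate numbers were taken to pair the libraries where the correlation of deviations from group means exceeded 0.1 for all 3 numbers. This held in 7 of 9 comparisons between groups (0.1509 to 0.6452), and not in WT D2 against Prol or D0. Alternatives were other scalings, no filter, a pseudocount of 1 CPM, the replicate block, only the groups compared and voom weights. Others were the study's criteria with a 1.5-fold cut, each library left out and, chosen after seeing the data, all libraries of replicate 1 left out. The procedure was tested on simulated data. Python 3.11.15 and matplotlib 3.10.9 made the figures.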

Additional observations from a re-analysis of the deposited data

How the results depend on the processing

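Of 9 genes, the number called at D2 against Prol in WT was 6 and lay between 5 and 7 under the alternatives other than the replicate block. In KO it was 7, and 3 to 6 as single libraries were left out. Against D0 it was 6 in WT and 5 in KO, and 3 in each with only the groups compared in the fit, where of all 17672 genes 2332 were called in WT (4590 with all groups) and 3185 in KO (4997 with all groups). With libraries left out it was 3 to 5 in WT and 2 to 5 in KO, lowest without KO D2 replicate 3. In KO vs WT, in D0 vs Prol and in the comparison of the changes, 0 were called under every setting run. With the replicate block as a term, 8 genes in WT and 7 in KO were called against Prol (47.7% and 48.6% of all genes), 6 and 6 against D0 (43.2% and 46.0%), and 41 of the 76 pathway genes in each genotype against Prol. For WT D2 the pairing was not borne out by replicate 3 (correlation of 0.0393 with Prol and 0.01 with D0), and there the block added Tgfb1 (limma adjusted p = 0.0222) and Fst (0.0159) against Prol. With the replicate as a random block and voom weights the values were 0.0233 for Tgfb1 and 0.0842 for Fst. In the other comparisons the block changed 1 call among the 9 genes, that of Tgfb2 in KO D2 against D0. With library totals alone, which gave medians over all genes of 0.13 to 0.166 in the 4 D2 comparisons, Tgfb1 in WT against Prol (0.0123) and Tgfb2 in KO against D0 (0.0269) were called and Acvr2b was lost in KO (0.0566 and 0.0578). Without a filter Tgfb2 in WT against D0 (0.0508) and Acvr2b in KO against D0 (0.0528) were lost. With only the groups compared, Bmp4 was called in KO against Prol (0.0436), and against D0 Smad6 (0.059), Tgfb2 (0.0861) and Acvr2b (0.162) in WT and Inhba (0.0885) and Acvr2b (0.119) in KO were lost.

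Some values that were not called changed sign. Fst in KO D2 against Prol was -0.155 without replicate 1 and -0.431 to 0.731 with single libraries left out, and against D0 it was 0.017 with library totals and -0.733 to 0.429. Bmp4 in WT D2 against D0 ran from -0.203 to 1.867 as libraries were left out. In KO vs WT at D2, Tgfb2 was -0.001 with median-of-ratios scaling, -0.013 with library totals and -0.097 without replicate 1, where Inhba was -0.146 and Bmp4 0.104. With libraries left out at D2 the KO vs WT values ran from -0.137 to 0.373 for Tgfb1, -0.275 to 0.354 for Tgfb2, -0.397 to 0.744 for Inhba, -0.262 to 0.274 for Bmp4, -0.303 to 0.546 for Acvr2b, -0.265 to 0.449 for Smad6 and -0.348 to 0.121 for Smad7. Of 675 recomputed D2 fold changes 28 changed sign, as did 85 of 729 in the other comparisons, where 0 were called. The cause of these changes was not tested. With 3 libraries a group and 9 to 63 counts a library, Acvr2b is the gene most limited by depth.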
